A study of Mus musculus with 3 samples.

Results

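Potassium channel genes were taken as all rows of the deposited gene tables whose symbol begins with Kcn: 92 genes of the 25562 listed. They comprise pore-forming subunits, auxiliary subunits and regulators, and were grouped here by the letter after Kcn. Of the 92, 51 had at least 20 sense exonic reads in 1 library and are called measured, against 10311 of all 25562 genes. The remaining 41 are accounted for at the end.

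The neurons came from the MGE (medial ganglionic eminence), an embryonic brain region that supplies many inhibitory interneurons of the cortex. They were taken from C57Bl/6 mouse embryos of day 14, titled WT (wild type), and kept for 10 days in culture. Every culture, the 0 h one included, had been silenced overnight from day 9 with tetrodotoxin (TTX), which blocks sodium channels, and AP-5, which blocks NMDA receptors. Depolarisation then came from 55 mM extracellular KCl, and total RNA was sequenced at 0, 1 and 6 h after directional ligation and removal of ribosomal RNA. There is 1 library at each time, so no difference below has a replicate check and no test is given. KCl depolarises every cell of the dish at once and is not synaptic firing, and the cultures are mixed.

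Potassium channels let potassium leave a cell and thereby pull its membrane voltage down. Voltage-gated members end the action potential and set how fast a neuron can fire again, inward rectifiers and leak channels set the resting voltage, and channels opened by calcium or sodium add the pause after a burst. In MGE-derived interneurons the fast voltage-gated members are known for supporting high firing rates.

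The 3 libraries held 8549377 to 8996897 uniquely mapped reads, of which 2189394 to 2480579 fell on annotated exons in sense and 1789710 to 2123187 on introns. Potassium channel genes took 5311, 5352 and 6999 of the exonic reads at 0, 1 and 6 h, or 0.243%, 0.218% and 0.282%. The activity-induced gene Fos had 21, 2901 and 877 exonic reads in the same order, low before KCl and highest at 1 h. Summed markers of MGE interneurons stood at 5147, 4889 and 6637 RPM (scaled reads per 1000000) at 0, 1 and 6 h, with 14 of 15 measured and Pvalb at 3 reads or fewer. The listed genes went both ways. Gad1 had 2787, 3457 and 5361 reads and Sst 1146, 1414 and 1841, while Lhx6 had 838, 645 and 496 and Sox6 763, 671 and 573. Astrocyte and radial glial markers were present too, at 2623, 2689 and 2823 RPM with 11 of 12 measured. Excitatory cortical markers stood at 98.6, 63.7 and 76.8 RPM with 1 of 9 measured, and no microglial marker of 6 had more than 3 reads in a library.

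Differences are ratios of reads scaled by TMM, a factor that sets most genes at a ratio of 1. Each has an exact 95% Clopper-Pearson interval that covers counting error only. PCR copies were kept by the authors, at 2.33 to 2.60 reads per distinct position, so reads are not independent molecules. As an alternative, intervals on distinct positions divided each count by its library's reads per distinct position. The factor was shared by all genes of a library and ratios kept all reads, so no gene's own repeats were removed. A gene is called higher or lower where the ratio is at least 2 or at most 0.5, the interval leaves out 1, and 1 of the 2 libraries has at least 20 reads. Levels are scaled RPM per kilobase of exon, with Poisson intervals.

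At 0 h, levels of the 51 measured genes spanned 1.23 to 45.8 RPM per kilobase, with a median of 6.64. Kcnd2, the pore of a fast-inactivating (A-type) current in dendrites and soma, led with 45.8, 44.8 and 50.6 RPM per kilobase at 0, 1 and 6 h. Kcna6, a Shaker-type delayed rectifier subunit, followed with 35.4, 33.5 and 32.1. Kcnd3, another A-type pore, stood at 32.1, 29.0 and 39.2, and Kcnma1, the pore of the large-conductance calcium-activated channel, at 32.0, 25.5 and 33.5 RPM per kilobase. Kcnip1, a calcium-binding partner of the Kcnd pores, was at 31.5, 31.7 and 31.9. These neighbours in the order at 0 h lie close together: the ranks 2 to 5 cover 31.5 to 35.4 RPM per kilobase, and their counting intervals overlap.

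**Figure D1:**
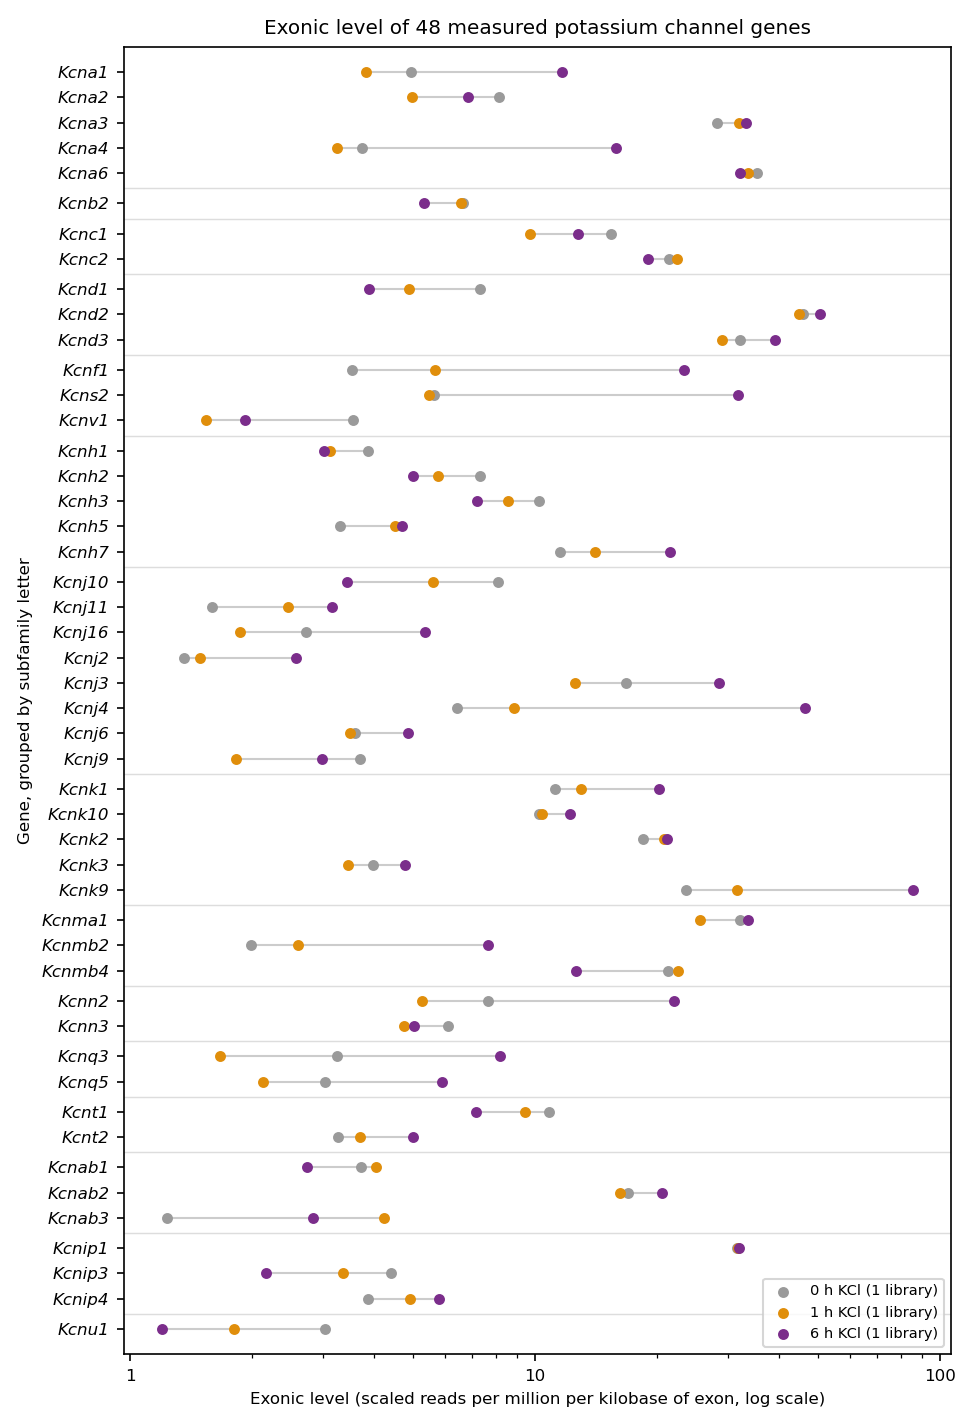
Exonic level of 48 measured genes in RPM per kilobase of exon (log axis), with 1 point per library at 0, 1 and 6 h of KCl and genes grouped by subfamily letter. Kcnk9 has the highest level at 6 h, 85.9, and Kcnj4, Kcns2 and Kcnf1 show the widest gaps between 6 h and 0 h, at ratios of 7.23, 5.64 and 6.59.

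The order of levels was different after 6 h. Kcnk9, an acid-sensitive leak channel, stood at 23.6, 31.6 and 85.9 RPM per kilobase at 0, 1 and 6 h, ranking 8, 5 and 1 of the 51. Kcnj4, a strong inward rectifier, stood at 6.43, 8.87 and 46.5 RPM per kilobase and ranked 27, 20 and 3. Kcns2, a modulatory voltage-gated subunit, stood at 5.63, 5.48 and 31.8 RPM per kilobase. The Kcnk9 gene model holds no 3′ UTR, so its level rests on 1209 bases of coding exon and does not count reads past the stop codon.

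Between 6 h and 0 h, 9 of the 50 members with enough reads were called higher, 3 lower and 38 neither. That is 18.0% called higher and 6.00% lower. Over all genes, 10.3% were called in either direction, 4.92% higher and 5.42% lower. Scaled by all mapped reads, 15 members were called higher and 2 lower, against 6.86% higher and 3.77% lower over all genes under that scaling. With TMM, the median log2 ratio of the 50 members, computed with 0.5 read added to each count, was 0.24, against 0.00 for all genes tested. A ratio above 1 was found in 30 of the 50, beside 5068 of 10095 over all genes. The genes called higher were Kcnj4, Kcnf1, Kcns2, Kcna4, Kcnmb2, Kcnk9, Kcnn2, Kcnq3 and Kcna1, which belong to 7 of the subfamily groups. Those called lower were Kcnj10, Kcnu1 and Kcnip3.

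**Figure D2:**
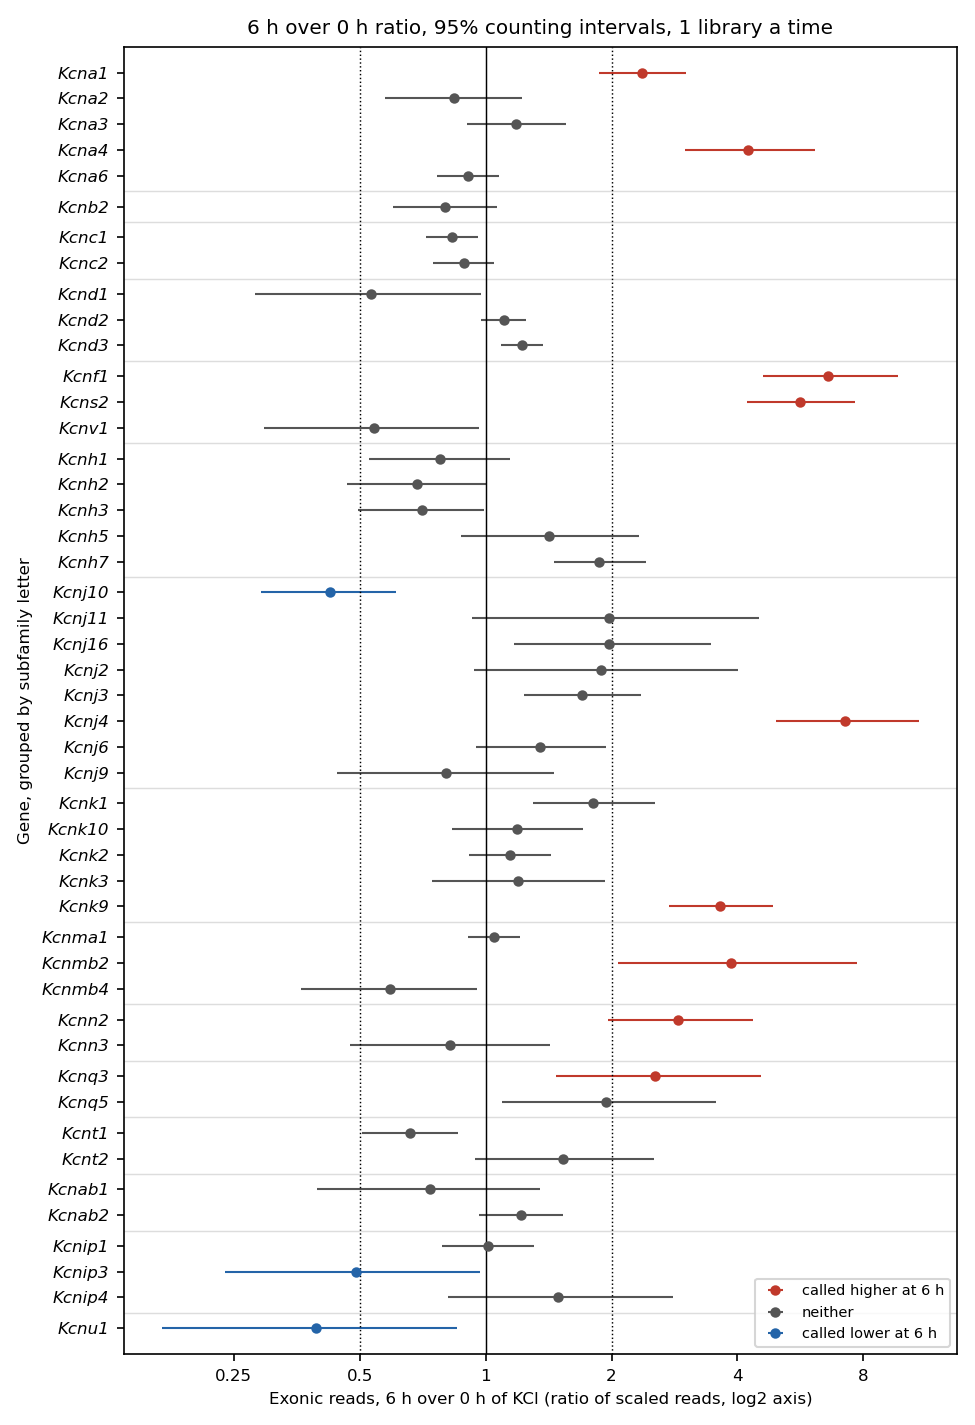
Ratio of scaled exonic reads at 6 h over 0 h (log2 axis) for 47 of the 50 genes with at least 20 reads in 1 of the 2 libraries. Points are single-library ratios, bars are 95% counting intervals, and dotted lines mark ratios of 0.5 and 2. The 9 genes called higher run from 2.37 (Kcna1) to 7.23 (Kcnj4), and the 3 called lower from 0.394 (Kcnu1) to 0.490 (Kcnip3).

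The modulatory voltage-gated subunits (Kcnf, Kcng, Kcns and Kcnv) form no channel by themselves and assemble with Kcnb pores. As a group of 10 genes their summed reads were 3.85 times as high at 6 h as at 0 h (interval 3.21 to 4.63). Kcnf1 (chr12:17178906-17183331, mm9, minus strand, a single-exon gene) had 35, 63 and 244 exonic reads at 0, 1 and 6 h. Its ratio was 6.59 at 6 h over 0 h (4.61 to 9.69). Kcns2 (chr15:34767136-34772092, mm9, plus strand) had 55, 60 and 328 reads, with a ratio of 5.64 (4.23 to 7.65). Both were high in the 6 h library and low in the other libraries. The third measured gene of the group, Kcnv1, had 35, 17 and 20 reads and a 6 h over 0 h ratio of 0.540 (0.296 to 0.962), short of the call. Of the Kcnb pores with which these subunits assemble, Kcnb2 had 111, 123 and 94 reads and was called in no exonic comparison.

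Of the 5 measured Shaker-type genes (Kcna), 2 were called higher at 6 h over 0 h and none lower, beside 4.92% higher and 5.42% lower over all genes. Kcna4 (chr2:107130811-107138661, mm9, plus strand), the fast-inactivating Shaker-type pore, had 40, 39 and 179 reads and a ratio of 4.23 (2.99 to 6.12). Kcna1, a low-threshold pore of axons, had 99, 86 and 248 reads and a ratio of 2.37 (1.87 to 3.02). Kcna6 had 275, 292 and 264 reads, Kcna3 had 100, 127 and 125, and Kcna2 had 63, 43 and 56. These last 3 had 6 h over 0 h intervals that held 1. Among the cytoplasmic beta subunits of Shaker-type channels, Kcnab2 led by level with 134, 144 and 172 reads and was called in no comparison.

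Kcnc and Kcnd genes, the pores for fast repolarisation and for A-type current, were called neither way at 6 h over 0 h. The Kcnc genes summed to a ratio of 0.878 (0.792 to 0.973) and Kcnd to 1.15 (1.05 to 1.25). Scaled by mapped reads these sums stood at 0.973 and 1.27. Kcnc2, the Kcnc gene with the highest level per kilobase, had 298, 348 and 279 reads, and Kcnc1 had 416, 294 and 365. Kcnd1, a low-level A-type pore, had 32, 24 and 18 reads and a ratio of 0.532 (0.281 to 0.977), just short of the call. Kcnd2 had 467, 512 and 545 reads, and its model overlaps another one on the same strand, as do those of Kcnk2 and Kcnab2, so some reads could be shared. Of the Kcnd partners, Kcnip1 had 124, 140 and 133 reads. Kcnip3, a calcium-binding protein also known as a transcriptional repressor, had 27, 23 and 14 and was called lower (0.490, 0.238 to 0.968). The Kcnip3 call was lost when reads were scaled by all mapped reads, and also with intervals on distinct positions.

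Of the ether-à-go-go family (Kcnh), 5 of 7 genes were measured and none was called in exonic reads. Kcnh7 had 98, 134 and 194 reads and a ratio of 1.87 (1.46 to 2.41). Kcnh7 also led the group by level per kilobase. The others had 6 h over 0 h ratios between 0.685 (Kcnh2) and 1.42 (Kcnh5).

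Several Kcnq genes, Kcnq3 and Kcnq5 among them, encode pores of the M-current, a slow voltage-gated brake on repeated firing. As a group of 5 genes their reads summed to 450, 365 and 465 at 0, 1 and 6 h, a 6 h over 0 h ratio of 0.977 (0.857 to 1.115). Kcnq3 had 19, 11 and 51 reads and was called higher, with a ratio of 2.54 (1.47 to 4.55). Kcnq5 had 19, 15 and 39 reads, a ratio of 1.94 (1.10 to 3.56) that did not reach the call. In level, Kcnq3 stood at 8.21 and Kcnq5 at 5.87 RPM per kilobase at 6 h.

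Inward rectifiers (Kcnj) held the member with the largest 6 h ratio and the best-covered member called lower. Kcnj4 (chr15:79314147-79339915, mm9, minus strand) had 31, 48 and 237 exonic reads at 0, 1 and 6 h and a 6 h over 0 h ratio of 7.23 (4.96 to 10.9). Kcnj10 (chr1:174271341-174304216, mm9, plus strand), the main glial inward rectifier, had 98, 76 and 44 reads. Its ratio was 0.425 at 6 h over 0 h (0.291 to 0.612) and 0.692 at 1 h over 0 h (0.506 to 0.943). In the same libraries the summed astrocyte and radial glial markers stood at 2623, 2689 and 2823 RPM, mostly from Fabp7 and Slc1a3. Of their 12 genes Hes5 alone was called lower at 6 h. Short of the call, Gfap (0.636, 0.417 to 0.960), Gja1 (0.763, 0.631 to 0.923) and Aldoc (0.843, 0.740 to 0.960) had intervals below 1. Fabp7 (1.286, 1.215 to 1.362) had an interval above 1, and the other measured markers had intervals that held 1. Of the oligodendrocyte lineage markers, Pdgfra had 90, 80 and 43 reads and was called lower (0.452, 0.307 to 0.657), and Olig2 had 50, 59 and 108 and was called higher (2.04). The part of these markers in the Kcnj10 result was not tested. In mixed cultures, fewer cells of a type and less RNA per cell cannot be told apart. Kcnj16, which assembles with Kcnj10, had 22, 17 and 46 reads and a 6 h over 0 h ratio of 1.98 (1.17 to 3.45).

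The G protein-gated rectifiers mediate inhibition through receptors such as GABA-B. Kcnj3, the group's highest by level at 0 h, had 63, 53 and 113 reads and a 6 h over 0 h ratio of 1.70 (1.24 to 2.35), while Kcnj6 had 56, 61 and 80 reads and a ratio of 1.35 (0.948 to 1.94). Kcnj9 had 27, 15 and 23 reads. The remaining measured rectifiers had few reads: Kcnj2, a relative of Kcnj4, had 13, 16 and 26, and Kcnj11, the pore of ATP-sensitive channels, had 11, 19 and 23. Kcnj11 and Kcnu1 were the measured genes nearest the 20-read minimum, and Kcnc4 with 19, 13 and 17 reads lay just outside it.

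Leak channels of the tandem-pore family (Kcnk) were led by Kcnk9 (chr15:72342549-72376709, mm9, minus strand). It had 64, 96 and 246 reads and a 6 h over 0 h ratio of 3.64 (2.75 to 4.86). All 5 measured Kcnk genes had a ratio above 1 at 6 h over 0 h, as did 5068 of 10095 over all genes. Only Kcnk9 met the call. Kcnk1, a weakly conducting relative, had 56, 73 and 107 reads and a ratio of 1.81 (1.30 to 2.54). The mechanically and lipid-gated Kcnk2 had 148, 187 and 179 reads, and Kcnk10 of the same branch had 58, 66 and 73. Kcnk3, the closest relative of Kcnk9 among the measured genes, had 34, 33 and 43 reads and a ratio of 1.20 (0.745 to 1.93).

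Among channels opened by calcium or sodium, Kcnn2, the pore of a small-conductance calcium-activated channel that prolongs the pause after a spike, had 35, 27 and 107 reads. Its ratio was 2.89 (1.96 to 4.37). Its relative Kcnn3 had 31, 27 and 27 reads and a ratio of 0.824 (0.473 to 1.43). For the large-conductance channel, the pore Kcnma1 had 362, 324 and 401 reads, a ratio of 1.05 (0.907 to 1.21). Its auxiliary subunits lay on opposite sides of 1. Kcnmb2 (chr3:31801625-32099102, mm9, plus strand), which inactivates the channel, had 13, 19 and 53 reads and was called higher (3.86, 2.07 to 7.71). Kcnmb4, the typical neuronal auxiliary subunit, had 48, 57 and 30 reads and a ratio of 0.591 (0.362 to 0.952), short of the call. In level per kilobase Kcnmb4 still stood above Kcnmb2 at 6 h, at 12.6 against 7.66 RPM.

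The sodium-activated pores Kcnt1 and Kcnt2 were called in no comparison. Kcnt1 had 143, 140 and 100 reads and a 6 h over 0 h ratio of 0.661 (0.507 to 0.860), and Kcnt2 had 29, 37 and 47 reads and a ratio of 1.53 (0.945 to 2.53). Kcnu1, a pH-sensitive channel known from sperm, had 24, 16 and 10 reads and was called lower (0.394, 0.168 to 0.855). That call was lost with intervals on distinct positions.

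At 1 h, 3 of 46 members with enough reads were called, 1 higher and 2 lower, or 6.52%. Over all genes 1.58% were called higher and 1.43% lower at 1 h over 0 h. Reads of Kcnab3, a Shaker-type beta subunit, numbered 7, 27 and 17 at 0, 1 and 6 h, called higher at 1 h (3.44, 1.46 to 9.36). The modulatory subunit Kcnv1 was called lower, at 0.433 (0.228 to 0.794), as was the G protein-gated Kcnj9 at 0.4955 (0.245 to 0.965). All 3 rest on few reads, and none was called with intervals on distinct positions. Scaled by all mapped reads, Kcnab3 alone was called. The median log2 ratio of the members was -0.11, against 0.01 for all genes tested.

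None of the 9 genes called higher at 6 h over 0 h was called at 1 h over 0 h. Kcnq3 and Kcnmb2 were under the read minimum in that comparison. Over all genes only 1.58% were called higher and 1.43% lower at 1 h over 0 h. The share among all genes called higher at 6 h was not computed. The absence of a 1 h call therefore does not set these 9 genes apart from others. The 1 h over 0 h ratios of the 9 genes ran from 0.516 (Kcnq3) to 1.605 (Kcnf1), and 8 of the 9 intervals held 1. Kcnf1 was the exception, with an interval of 1.05 to 2.50.

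**Figure D3:**
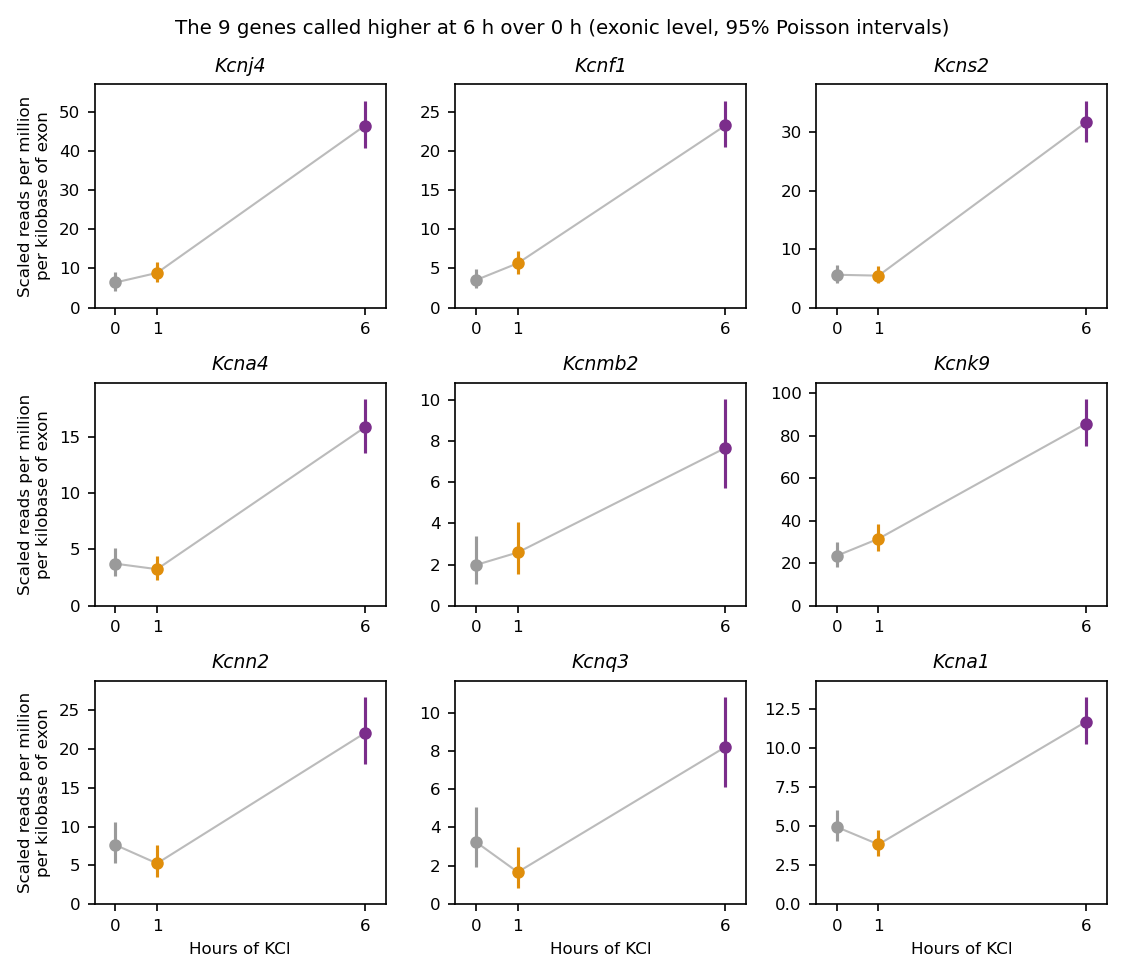
Exonic level (RPM per kilobase of exon, linear axis from 0) against hours of KCl for the 9 genes called higher at 6 h over 0 h. Points are single libraries and bars are 95% Poisson counting intervals. In each panel the 6 h interval lies above the intervals at 0 and 1 h.

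Between 6 h and 1 h, 13 of 50 members were called higher and 0 lower, against 8.80% of all genes called in either direction, 4.17% higher and 4.63% lower. The same 9 genes were among the 13. Since both comparisons use the 6 h library, they are not independent of each other. The additional genes included Kcnj3, Kcnj16 and Kcnq5. For Kcnj16 the 6 h over 1 h ratio was 2.87 (1.61 to 5.34), for Kcnq5 2.76 (1.49 to 5.38) and for Kcnj3 2.26 (1.62 to 3.20). These 3 had fewer reads at 1 h than at 0 h. Of the 13, Kcnj16, Kcnq5, Kcnmb2 and Kcnq3 passed the minimum only through the 6 h library. The zero count is for calls at a 2-fold threshold. At 1.5-fold 2 members were lower, beside 10.9% of all genes, and with a minimum of 10 reads Kcnj12 was lower at 2-fold.

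Intronic reads come in part from unspliced RNA, and potassium channel genes held many: 17201, 12000 and 20608 at 0, 1 and 6 h, or 0.810%, 0.6705% and 0.984% of all intronic reads. At 6 h over 0 h, 5 of 36 members with enough intronic reads were called higher and 2 lower, against 10.9% of all genes called in either direction, 5.27% higher and 5.59% lower. Kcnh7 had 2109, 1643 and 4112 intronic reads at 0, 1 and 6 h and a 6 h over 0 h ratio of 2.19 (2.07 to 2.31). Kcnn2 had 221, 280 and 753 intronic reads and a ratio of 3.82 (3.29 to 4.46). The introns of Kcnk9 had 17, 42 and 63 reads, a ratio of 4.16 (2.40 to 7.58). Kcnj4 had 18, 17 and 35 (2.18, 1.20 to 4.09). Kcnk13, a leak channel with too few exonic reads to be measured, had 15, 10 and 43 (3.22). The introns of Kcnk9, Kcnj4 and Kcnk13 passed the minimum only through the 6 h library.

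The intronic calls of Kcnh7 and Kcnj4 sit near the threshold and were lost when introns were scaled by total intronic reads, at 1.98 and 1.97. That scaling left 3 members higher and 2 lower, beside 4.01% higher and 8.29% lower over all genes. With intervals on distinct positions, Kcnj4 and Kcnip2 lost the call. Of the 2 genes called lower in introns, Kcnip2, a Kcnd partner, had 23, 7 and 9 reads (0.439) and was not measured in exons. Kcnip2 introns passed the minimum only through the 0 h library.

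At 1 h, intronic and exonic reads met the call in different members. Kcnk9 was called higher in introns at 1 h over 0 h, at 3.36 (1.87 to 6.30), when its exonic ratio was 1.34 (0.965 to 1.87). It was the only member called higher in introns at 1 h, of 34 with enough reads, and 3 were called lower. The Kcnk9 introns passed the minimum in this comparison only through the 1 h library. Over all genes 13.7% were called in either direction, 7.48% higher and 6.19% lower. Kcnk2 had 157, 46 and 126 intronic reads and a 1 h over 0 h ratio of 0.399 (0.281 to 0.557), while its exonic reads were 148, 187 and 179. The Kcnk2 model overlaps another one on the same strand, so some reads could be shared. Without overlapping models, 1 of 31 members was called higher in introns and 2 lower. Kcnip2 was also called lower (0.414), a call that was lost with intervals on distinct positions. With introns scaled by the exonic TMM factors, 1 member was called higher and 12 lower at 1 h, against 2.59% higher and 27.2% lower over all genes under that scaling. Kcnn2 had a 1 h intronic ratio of 1.72 (1.44 to 2.07), short of the call, beside an exonic ratio of 0.688 (0.401 to 1.17).

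Between 6 h and 1 h, intronic reads of 5 of 33 members were called higher and 0 lower, against 12.9% of all genes in either direction, 7.07% higher and 5.79% lower. They were Kcnh7, Kcnj6, Kcnk13, Kcnk2 and Kcnn2, of which Kcnk13 passed the minimum only through the 6 h library. Without overlapping models, of which Kcnk2 is one, 4 of 30 members were called higher. Kcnj6 had 192, 114 and 320 intronic reads, with a 6 h over 1 h ratio of 2.31 (1.86 to 2.89).

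Across the 32 genes with enough reads of both kinds, exonic and intronic 6 h over 0 h ratios lay on the same side of 1 in 28, and the log2 ratios had a Pearson r of 0.81. This describes genes within the same pair of libraries, which share their depth and scaling. Over all genes with enough reads of both kinds the share on the same side was 67.9%, against 87.5% of the members. At 1 h over 0 h the same was true of 15 of 28 members (r of 0.13), or 53.6%, against 57.6% of all genes. At 6 h over 1 h it was true of 25 of 31 (r of 0.52), or 80.6%, against 54.3% of all genes. The difference from other genes was not tested. Of the 9 genes called higher in exons at 6 h, 5 had enough intronic reads. All 5 had an intronic ratio above 1, and Kcnj4, Kcnk9 and Kcnn2 were called. Kcnq3 had 403, 309 and 596 intronic reads and a ratio of 1.66 (1.46 to 1.89), and Kcnmb2 had 161, 127 and 208 and a ratio of 1.45 (1.17 to 1.79).

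**Figure D4:**
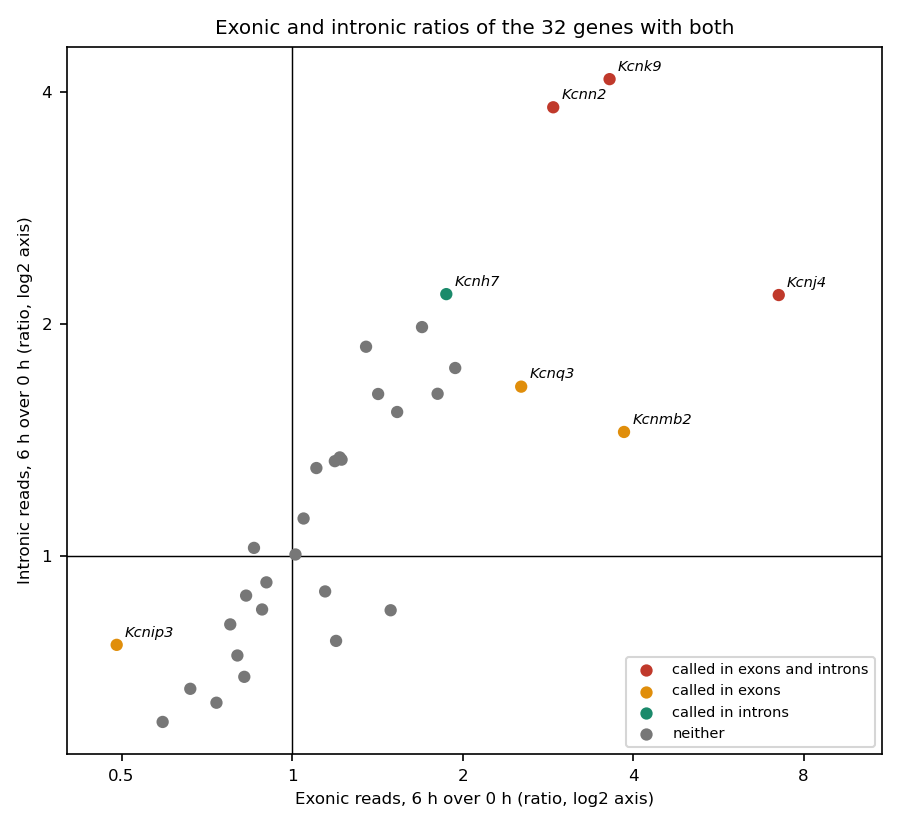
Intronic against exonic ratio at 6 h over 0 h (both log2 axes) for the 32 genes with at least 20 reads of each kind in 1 of the 2 libraries, coloured by which kind of read met the call. Kcnk9, Kcnn2 and Kcnj4 were called higher in both, and Kcnh7 was called in introns only.

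The increase in Kcnn2 and Kcnh7 intronic reads, for which both genes were chosen, was seen in several introns of each. Each of the 5 introns of Kcnn2 with at least 20 reads had a 6 h over 0 h ratio between 3.03 and 4.67, with an interval above 1. In Kcnh7 10 introns had that many reads, with ratios between 1.42 and 4.91 and intervals above 1. Kcnn2 intron 4 and Kcnh7 introns 3 and 4 had 17, 15 and 16 reads at 0 h and passed only through the 6 h library. Of the sparser Kcnh7 introns, intron 13 had 12 and 9 reads at 0 and 6 h, a ratio of 0.841 (0.313 to 2.175). Introns 1, 10 and 11 of Kcnh7, also under the minimum, had ratios above 1. The long second intron of Kcnh7 held most of its intronic reads, with 1634, 1209 and 3188.

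**Figure D5:**
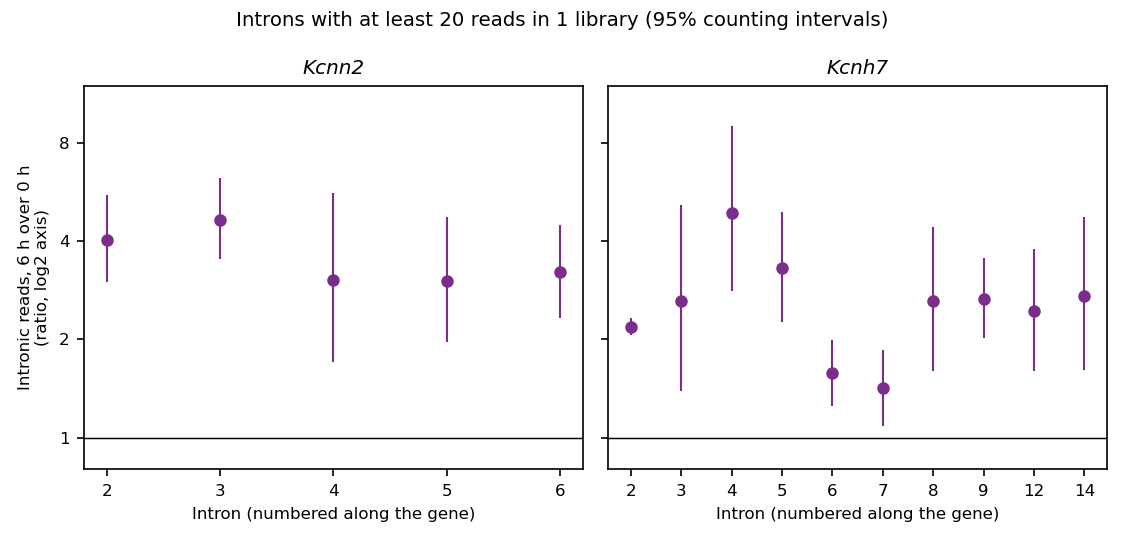
Ratio of intronic reads at 6 h over 0 h (log2 axis) for each intron of Kcnn2 and Kcnh7 with at least 20 reads in 1 of the 2 libraries, numbered in the direction of transcription. Bars are 95% counting intervals. All 5 introns of Kcnn2 and all 10 of Kcnh7 shown lie above 1. Kcnn2 intron 4 and Kcnh7 introns 3 and 4 passed the minimum only through the 6 h library.

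The ratios of exon parts differed within some genes, from few reads and with intervals of counting error only. Whether parts of a gene differ was not tested. The parts named here were chosen after their values were seen. In Kcnj4, coding reads numbered 18, 33 and 191 at 0, 1 and 6 h, a 6 h over 0 h ratio of 10.0 (6.18 to 17.3). Its 3′ UTR held 7, 11 and 32 reads, a ratio of 4.32 (1.87 to 11.6), and the intervals of these parts overlap. In Kcnn2 the last exon held 5, 7 and 48 reads, a ratio of 9.08 (3.63 to 29.2). The earlier exons of Kcnn2 held 27, 17 and 52, a ratio of 1.82 (1.12 to 3.02), and those intervals do not overlap. In Kcna1 the 3′ UTR held 65, 52 and 178 reads (2.59, 1.94 to 3.50). Its coding part held 29, 19 and 49 (1.60, 0.990 to 2.62), and these intervals overlap. In Kcnf1 and Kcns2 coding and 3′ UTR ratios were close: 5.82 and 7.50 for Kcnf1, and 5.57 and 5.67 for Kcns2.

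Reads past the annotated end are given for Kcns2 and Kcnk9, both already called higher in exons. They were not particular to such genes: Kcna3, called in no comparison, had 33, 30 and 30 at 0, 1 and 6 h. In the 500 bases downstream of the model, Kcns2 had 7, 9 and 52 reads at 0, 1 and 6 h (7.03, 3.18 to 18.3) and Kcnk9 had 12, 18 and 73 (5.75, 3.10 to 11.6). Downstream reads of all genes together numbered 561095, 405889 and 376168, so the total was lower at both later times. The exonic counts of Kcns2 and Kcnk9 leave these reads out.

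Promoters of Kcnj4, Kcnf1 and Kcna4 are shown. Among the genes called higher at 6 h over 0 h that have a promoter window, these had the largest ratios. Kcns2, at 5.64, has no window. Whether these genes share regulation was not tested. Of the 92 members, 67 have a window in the RefSeq promoter table (GRCm38.p6, 250 bases before to 50 after each start), and 34 of these are measured. The table has entries for Kcnj4, Kcnf1, Kcna4 and Kcnmb2 among the genes called higher. Capitals mark letters of a searched motif, and each sequence reads along the gene's own strand. Kcnj4 lies at chr15:79505192-79505491 on the minus strand, Kcnf1 at chr12:17176839-17177138 on the minus strand and Kcna4 at chr2:107290339-107290638 on the plus strand, all GRCm38.p6.
Kcnj4: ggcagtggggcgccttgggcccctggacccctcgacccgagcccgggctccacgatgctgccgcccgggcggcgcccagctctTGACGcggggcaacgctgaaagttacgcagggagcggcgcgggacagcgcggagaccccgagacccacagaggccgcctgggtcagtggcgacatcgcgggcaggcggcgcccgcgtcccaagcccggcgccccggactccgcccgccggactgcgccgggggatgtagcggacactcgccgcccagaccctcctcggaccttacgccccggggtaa
Kcnf1: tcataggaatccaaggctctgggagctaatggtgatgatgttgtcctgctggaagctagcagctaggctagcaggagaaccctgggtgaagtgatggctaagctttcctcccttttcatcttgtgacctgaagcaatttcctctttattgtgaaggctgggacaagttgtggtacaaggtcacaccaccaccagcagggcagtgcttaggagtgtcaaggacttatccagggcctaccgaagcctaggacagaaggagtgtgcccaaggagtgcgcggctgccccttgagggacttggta
Kcna4: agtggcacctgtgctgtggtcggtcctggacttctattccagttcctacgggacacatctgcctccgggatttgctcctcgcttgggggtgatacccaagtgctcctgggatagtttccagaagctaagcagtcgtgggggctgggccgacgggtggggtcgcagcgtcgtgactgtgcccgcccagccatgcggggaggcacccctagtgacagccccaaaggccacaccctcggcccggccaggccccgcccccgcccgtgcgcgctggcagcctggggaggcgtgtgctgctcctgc

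The motifs searched on both strands were the full cyclic AMP response element (CRE), TGACGTCA, its first 5 letters TGACG, called the short site here, which the full element contains, the AP-1 site TGANTCA and the serum response element. All are known binding sequences of factors activated by depolarisation. The 92 windows of the 67 member genes held the short site in 17 (18.5%), the AP-1 site in 4 (4.35%) and neither of the other motifs. Of all 32851 windows in the table, 20.8% hold the short site, 7.81% the AP-1 site, 1.79% the full CRE and 1.63% the serum response element. Of the 4 windows of genes called higher at 6 h, that of Kcnj4 holds 1 short site, and those of Kcnf1, Kcna4 and Kcnmb2 hold no searched motif. The windows are short, and letters outside them were not searched.

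The listed potassium channel partners without a Kcn symbol, 30 genes, were counted by the same rule: auxiliary and anchoring proteins, regulators and related cation channels. Of 29 in the files, 24 had enough reads at 6 h over 0 h, with 2 called higher, 1 lower and 21 neither, or 12.5% called against 10.3% of all genes. Lgi1, a secreted protein that acts with Adam22 at Shaker-type channels, had 148, 137 and 458 reads at 0, 1 and 6 h and a ratio of 2.93 (2.43 to 3.55). Pias3, a SUMO ligase also described as a channel-associated protein, had 44, 56 and 20 (0.430, 0.240 to 0.745). None of the 23 with enough reads was called at 1 h over 0 h, where 1.58% of all genes were called higher and 1.43% lower.

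Beside the 9 potassium channel genes called higher and 3 lower of 50 at 6 h over 0 h, voltage-gated sodium and calcium channel genes had 2 higher and 1 lower of 28 by the same rule, or 10.7% called against 10.3% of all genes. The median log2 ratio was 0.24 for the potassium channel genes and -0.04 for the sodium and calcium channel genes. Scn1a, a sodium channel pore, had 351, 434 and 853 reads (2.30), Cacng5, a calcium channel gamma subunit relative, 23, 22 and 219 (9.00), and Cacna1d, an L-type calcium channel pore, 203, 196 and 69 (0.321). The difference between the families was not tested.

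Of the 41 members that were not measured, 13 had no exonic read in any library and 28 had between 1 and 19 at most. A count of 0 allows up to 3 reads, or 1.34, 1.19 and 1.27 scaled RPM at 0, 1 and 6 h. No gene of the Kcne family of small auxiliary subunits was measured, of 5. Among Kcnk genes 9 of 14 were not measured, and among Kcnf, Kcng, Kcns and Kcnv genes 7 of 10. Kcna10, Kcna7, Kcng4, Kcnj14, Kcnj15 and Kcnn4, a channel of blood and epithelial cells, were among those at 0 in every library. Kcnq1, the pore of a cardiac and epithelial current, had 0, 1 and 2 exonic reads.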

How the data were processed

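The files held sense and antisense read counts per gene part, deposited by the authors without normalisation, for 3 libraries of total RNA sequenced on SOLiD instruments per the labels. Per the file headers and counting logs, reads of 35 bases that mapped to 1 place with up to 3 mismatches were counted on RefSeq gene models. Repeated reads at 1 position were kept. Per the submitters' processing notes the build was mm9. No source used here names the aligner. The authors also deposited an exonic coverage, read bases per base scaled to 10000000 reads and corrected for mappability. It was used as an alternative only. Per-exon and per-intron counts were read from lists in the same files.

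Sense exonic and intronic counts were each scaled by TMM (edgeR 4.0.16, R 4.3.3) over all genes, and ratios with Clopper-Pearson intervals were computed in Python 3.11.15 with scipy 1.17.1. With 1 library a time there is no test and no p-value. The calculation was checked on simulated Poisson counts with planted changes. Those counts held no repeated reads and no spread between cultures, so the check does not cover either. Full values are given for members called in any comparison, the leader of each subfamily by level at 0 h, and the genes next to the 20-read minimum. Lgi1, Pias3, Scn1a, Cacng5 and Cacna1d were called at 6 h over 0 h in their lists. Some genes that the rule covers are not reported here by name, and counts include them. Members, lists, motifs and markers were chosen with earlier results of these data known. Oligodendrocyte lineage markers summed to 166.9, 173.5 and 198.3 RPM at 0, 1 and 6 h, and endothelial, mural and meningeal markers to 12.9, 7.16 and 8.86. Alternatives were DESeq2 1.42.0 size factors, total exonic or intronic reads, mapped reads, the authors' coverage, other minimums and folds, and intervals on distinct positions.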

Additional observations from a re-analysis of the deposited data

Results flagged for a closer look

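Antisense reads within Kcnq1 lie outside the sense counts used for the comparisons. The strand opposite to Kcnq1 had 840, 900 and 1208 reads at 0, 1 and 6 h, against 19, 7 and 7 sense reads within the gene, and the limit that a count of 0 allows is 3 reads. The 6 h over 0 h ratio was 1.61 (1.48 to 1.76) with the intronic scaling and counting error only, which does not reach the 2-fold call. Nearly all antisense reads fell in introns 10 and 11, with 296, 204 and 305 reads in intron 10 and 527, 674 and 893 in intron 11. In GENCODE M21 on GRCm38 the noncoding gene Kcnq1ot1 lies opposite both of these introns. The deposited tables were not matched to it by coordinates, so no value is given under its name.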

How the results depend on the processing

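No paired analysis was possible because each time has 1 library, and for the same reason no library could be left out. Scaling by mapped reads shifted the log2 ratio of every gene by 0.24, 0.15 and -0.09 in exons (1 h over 0 h, 6 h over 0 h, 6 h over 1 h) and by -0.37, -0.10 and 0.27 in introns. The exonic TMM factors shifted introns by -0.61, -0.25 and 0.36. Every scaling run for single genes shifted ratios by less than the 2-fold of a call. No called ratio could therefore change side, so this is no check of the calls. Of the ratios of subfamily sums under other scalings, 10 moved beyond their counting interval, all by mapped reads, and 122 did not.

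Percentages in parentheses are the share of all genes called in either direction under the same setting. Calls in exons at 1 h over 0 h were 3 of 46 as reported, against 1.58% of all genes higher and 1.43% lower. They became 1 by mapped reads (3.45%), 1 by the authors' coverage (2.97%) and 5 of 59 with a minimum of 10 reads (3.52%). They became 0 of 29 with a minimum of 50 (1.71%), 7 at 1.5-fold (9.07%) and 1 at 3-fold (0.773%). With intervals on distinct positions 0 were left (1.48%). At 6 h over 0 h, 12 of 50 as reported (10.3%) became 21 at 1.5-fold (24.8%) and 6 at 3-fold (3.29%). At 6 h over 1 h, 13 of 50 (8.80%) became 7 at 3-fold (2.57%). The other settings gave 10 to 17 calls (7.14% to 11.2%) and 11 to 17 calls (6.17% to 20.8%). In introns at 1 h over 0 h, 4 of 34 (13.7%) became 8 by mapped reads (19.4%) and 13 by exonic TMM factors (29.8%). They became 1 of 26 with a minimum of 50 (11.0%), 1 at 3-fold (4.46%) and 2 with intervals on distinct positions (8.18%). At 6 h over 0 h, 7 of 36 (10.9%) became 3 of 27 with a minimum of 50 (8.06%), 14 at 1.5-fold (24.1%) and 4 at 3-fold (3.50%). At 6 h over 1 h, 5 became 12 by mapped reads, 13 by exonic TMM factors, 12 at 1.5-fold and 1 at 3-fold.

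By mapped reads the exonic calls at 6 h over 0 h split into 15 higher and 2 lower, against 9 and 3 as reported, and by the authors' coverage into 12 and 2. Over all genes 6.86% were called higher and 3.77% lower by mapped reads, and 6.45% and 3.93% by the authors' coverage. All 9 genes called higher kept the call with intervals on distinct positions. Intervals on distinct positions and the set without overlapping models were chosen after seeing the data. Depth limits the members with few reads most.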
